A study of Mus musculus with 6 samples.

Results

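Prlr, Gata4 and Pdgfra are genes that mark the Leydig lineage, the steroid-making cells of the testis. The data below are peaks of these genes where RNA recovered with the RNA-binding protein ZFP36L2 was compared with RNA recovered with IgG. A peak listed there is not by itself a site of contact with ZFP36L2. The members are all rows of the authors' peak table whose gene name is among the 3 symbols. That gives 36 peaks of 55449, with 20 in Prlr, 12 in Gata4 and 4 in Pdgfra. The table covers 10818 gene names, and none of the 36 peaks carries a second name.

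Prlr encodes the prolactin receptor, a single-pass cytokine receptor that signals through the kinase JAK2 and the transcription factors STAT5A and STAT5B. In Leydig cells of rodents, prolactin acts through it on the number of luteinizing hormone receptors. Gata4 encodes a zinc finger transcription factor that binds GATA motifs in the promoters of steroidogenic genes and is needed for development of the gonad. Pdgfra encodes a receptor tyrosine kinase for platelet-derived growth factors. In the fetal and postnatal testis it is found on Leydig progenitors and stromal cells, and PDGF-A signalling through it is needed for adult Leydig cells to form. ZFP36L2 carries tandem CCCH zinc fingers, through which proteins of its family contact AU-rich elements, mostly in 3′ UTRs, and speed up decay of the mRNA.

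The labels name MLTC-1, a mouse Leydig cell tumour line, for all libraries. On that label, each gene was read in 1 transformed line and not in testis tissue. The 6 libraries came from eCLIP, in which ultraviolet light at 254 nm and 400 mJ per cm2 links proteins to the RNA they touch. The groups were 2 immunoprecipitation (IP) libraries with the ZFP36L2 antibody, 2 input libraries of that arm, 1 IP library with rabbit IgG and 1 input library of the IgG arm. All groups were crosslinked, and the labels name no genetic change, so no ZFP36L2-deficient cells serve as a control. For each peak the table lists 1 log2 fold change, ZFP36L2 over IgG, with its p-value before and after adjustment. It holds 0 columns of a single library. Levels per library, their spread and the read depth are therefore unknown, and no value below has a standard error. In a bulk lysate, fewer cells carrying an RNA and less RNA per cell cannot be told apart, and how the RNA level of a gene entered its fold change is stated in none of the sources used. Across the table the median log2 fold change was -1.06 and 76.2% of peaks lay below 0, so each member is also given against that median.

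Enriched peaks are those with an adjusted p under 0.05 whose log2 fold change was at least 1, and depleted peaks those under the same adjusted p at -1 or lower. One Prlr peak of 20 was enriched, in the 5′ UTR. One Gata4 peak of 12 was depleted, in an intron, and 1 Pdgfra peak of 4 was depleted, in the 3′ UTR. Of all peaks of the table, 2.22% were enriched and 5.44% depleted. Of the 36 peaks, 1 (2.78%) was enriched and 2 (5.56%) were depleted, so the shares of calls in the 3 genes lay near those of the table.

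The enriched Prlr peak lies beside an annotated start of the gene, which makes the sequence at the Prlr starts the one to see first. RefSeq, on build GRCm38.p6, the same as mm10, gives Prlr 3 start sites on the plus strand of chromosome 15, at 10177238, 10223906 and 10293651. The enriched peak, chr15:10223947-10224002, begins 41 nt downstream of the second of these. The last 30 bases of the window at that start, chr15:10223926-10223955, are shown with the 9 bases that belong to the peak in capitals.

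Prlr second start, transcribed bases: tacttgcctgccaaagagagaAGCTGACTC

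The 250 bases before each Prlr start are shown to describe the sequence there. Whether they bear on the fold changes described below was not tested. GATA, the core letters that GATA factors bind, and its reverse complement TATC are in capitals.

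Prlr first start, chr15:10176988-10177237: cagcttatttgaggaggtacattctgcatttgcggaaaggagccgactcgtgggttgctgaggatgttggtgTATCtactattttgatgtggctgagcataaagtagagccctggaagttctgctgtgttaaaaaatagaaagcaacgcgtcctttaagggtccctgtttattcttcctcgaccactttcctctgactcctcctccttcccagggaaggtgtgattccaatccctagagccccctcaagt
Prlr second start, chr15:10223656-10223905: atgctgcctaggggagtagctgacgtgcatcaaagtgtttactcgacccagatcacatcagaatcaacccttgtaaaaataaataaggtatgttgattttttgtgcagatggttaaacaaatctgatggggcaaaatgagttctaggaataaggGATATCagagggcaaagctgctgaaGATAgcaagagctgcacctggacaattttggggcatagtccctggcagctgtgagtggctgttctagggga
Prlr, the third start, chr15:10293401-10293650: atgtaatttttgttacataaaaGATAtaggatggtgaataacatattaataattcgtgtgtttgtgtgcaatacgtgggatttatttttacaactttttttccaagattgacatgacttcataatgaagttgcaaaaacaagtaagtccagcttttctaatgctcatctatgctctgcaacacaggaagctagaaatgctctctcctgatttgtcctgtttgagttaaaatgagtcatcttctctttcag

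Both strands were searched for GATA. The second start had 3 matches, 2 of them overlapping in GATATC, and the first and the third start had 1 each. Such letters are common: 53.6% of 32851 promoter windows hold at least 1 in the same 250 bases, with a median of 1. The G and C content of the 3 stretches was 48.0%, 44.8% and 32.8%, from the first start to the third. ATTTA, the core of AU-rich elements, was searched on the sense strand in the first 50 transcribed bases and was found at 0 of the 3 Prlr starts. The 9 peak bases shown hold no ATTTA either. The other bases of that peak, and the sequences of the remaining peaks, were not analysed here.

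Prlr (ENSMUSG00000005268.20) lies at chr15:10177238-10349190. In this receptor gene, the enriched peak had a log2 fold change of 2.53 (5.78-fold, p = 0.00234, adjusted p = 0.0339) per the authors' deposited table. It is 56 nt long and was the only Prlr peak that the table assigns to a transcribed exon class. Its value stood above that of 98.2% of all peaks and above 97.2% of the 1228 peaks in 5′ UTRs. Of these, 39 (3.18%) were enriched, with a median of 3.47 per the authors' deposited table, and 33 of the 39 were larger than the Prlr value. By adjusted p it was among the last of the enriched peaks, since 95.7% of the 1231 had a smaller one.

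The other 19 Prlr peaks were intronic, and none was called. An intronic pair at chr15:10250004-10250042 came closest: its 9 nt part had 2.52 (adjusted p = 0.0589) and its touching 30 nt part 2.27 (adjusted p = 0.209) per the authors' deposited table. The 9 nt part thus differed from the enriched 5′ UTR peak by 0.01 in log2 fold change and fell on the other side of the threshold. An intronic peak between the first and second starts, at chr15:10207792-10207844, had 2.14 (p = 0.0112, adjusted p = 0.117) as deposited by the authors. With the enriched peak, these are the 4 Prlr peaks with an unadjusted p under 0.05, and all 4 have positive values. No Prlr peak was depleted, at an adjusted or an unadjusted p. Of all 55449 peaks, 1626 were higher and 6188 lower by at least 1 in size at an unadjusted p under 0.05.

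The Prlr values fell into a 5′ and a 3′ stretch. Between the first and second starts, 6 intronic peaks are listed in the authors' deposited table at 0.14, -0.63, 1.58, 1.1, 2.14 and 1.67 on the log2 scale, in the direction of transcription. Between the second and the third start, the 5′ UTR peak at 2.53 was followed by -0.37, -0.33, 1.82, 2.52, 2.27, 1.22 and 0.88 in the same table. Of these 14 peaks, 11 were above 0, and all 14 were above the table's median. Their own median was 1.40, which is 2.46 above that of the table.

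Downstream of the third start the sign was the other one. The 6 peaks there had values of -1.95, -1.34, -1.54, -2.31, -1.61 and -2.33 per the authors' deposited table, all below 0 and all below the table's median. The first of them, chr15:10293894-10293926, begins 243 nt past the third start. No peak lies in the 25970 nt between it and the last peak of the upstream stretch. The lowest value of the gene is that of the last peak, chr15:10340389-10340429. The smallest p among the 6 was 0.0646, so no single one of them differed between ZFP36L2 and IgG by the authors' test.

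The highest of the downstream values, -1.34, lay below the lowest of the upstream values, -0.63, so that the 2 stretches did not overlap. This division was drawn after the values were seen, and it carries no test. How many other genes can be divided without overlap was not counted, so it cannot be called particular to Prlr. Touching peaks are adjacent pieces of 1 stretch of RNA without shared bases, and the 20 Prlr peaks form 16 separate stretches, 12 upstream and 4 downstream of the third start. With 1 peak per stretch, 9 of 12 were above 0 upstream and 4 of 4 below 0 downstream. Over the 20 peaks, Spearman's rho between position along the gene and log2 fold change was -0.55, as a description of peaks that share 1 transcript. Of 1001 genes with 12 or more peaks, 86 had a rho at or below that value.

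**Figure D1:**
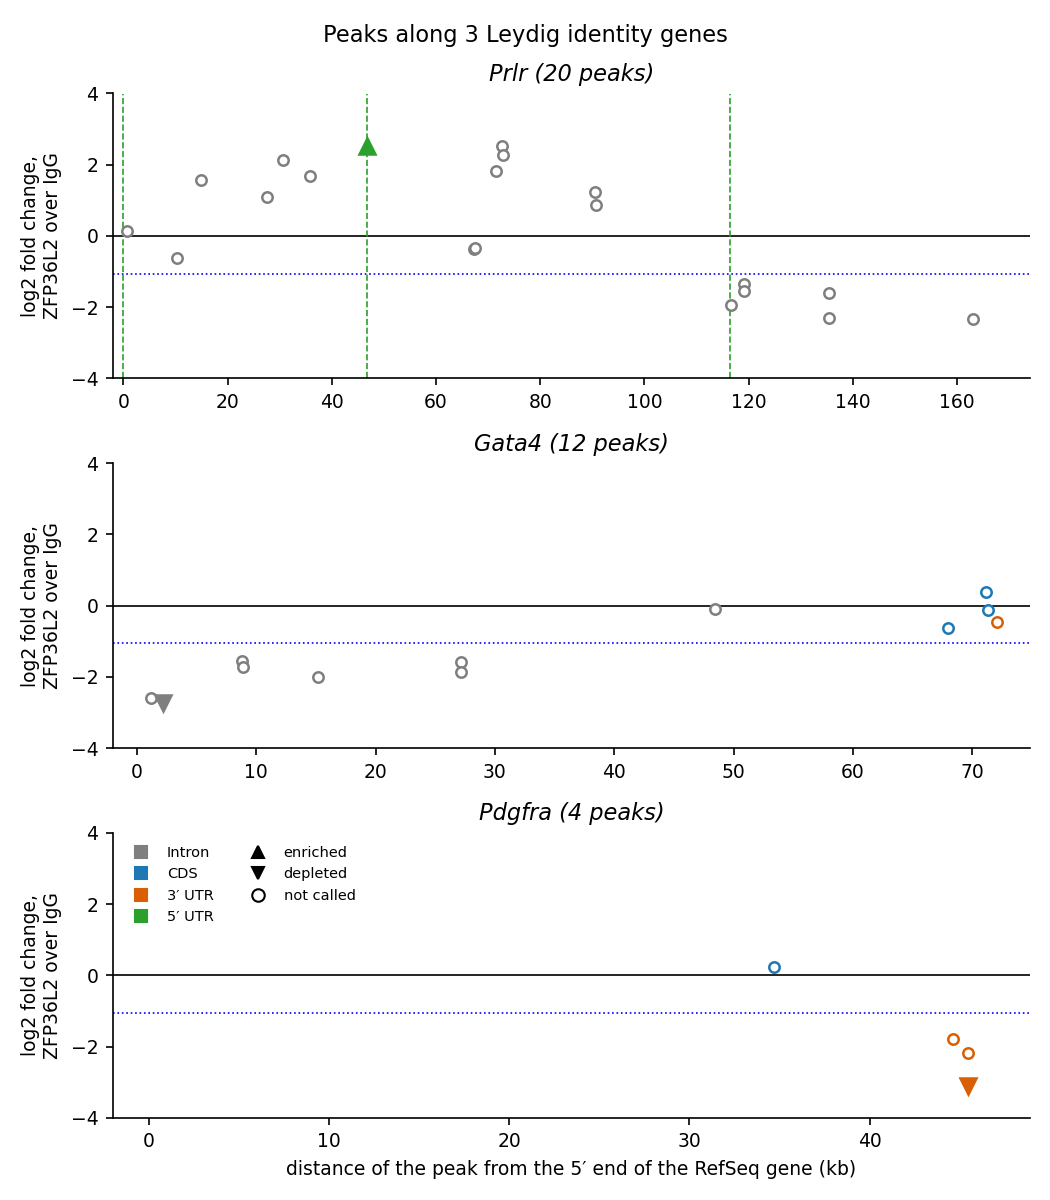
Log2 fold change of ZFP36L2 over IgG (vertical axis) against the distance of each peak from the 5′ end of the RefSeq gene in kb (horizontal axis), with 1 panel per gene. Colours give the transcript region, filled triangles the called peaks, the blue dotted line the median of all peaks (-1.06) and green dashed lines the 3 Prlr starts; the Prlr peaks right of the third start all lie below 0, and the Gata4 exonic peaks lie above the 5′ intronic ones.

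Gata4 (ENSMUSG00000021944.15), the transcription factor gene, had peaks in introns and in exons. RefSeq places it at chr14:63198914-63271712, and its peaks lie on the minus strand, so its 5′ end is at the higher coordinate. The depleted peak, chr14:63269427-63269488, is 62 nt long, begins 2224 nt from the 5′ end and lies in an intron. It had a log2 fold change of -2.72 (6.59-fold lower with ZFP36L2 than with IgG, p = 0.00186, adjusted p = 0.0282) per the authors' deposited table. This value stood at percentile 9.34 among intronic peaks. Intronic peaks were depleted in 7.04% of 23461 cases, with a median of -3.31 per the authors' deposited table, and 1526 of the 1651 depleted intronic peaks had a lower value than the Gata4 peak.

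The remaining 7 intronic peaks of Gata4 were not called. The peak nearest the 5′ end, at a distance of 1187 nt, had -2.58 per the authors' deposited table with an adjusted p of 0.417, close in size to the depleted neighbour but far from the threshold. The next ones in the direction of transcription had -1.54, -1.73, -2.0, -1.58 and -1.87 in the same table, and the last intronic peak, 48416 nt from the 5′ end, had -0.10. The first 7 of the 8 intronic peaks were therefore all between -2.72 and -1.54 and all below the table's median. Of all 23461 intronic peaks, 13289 lay below that median. The touching pairs of Gata4 are among these 7 peaks, so the 7 are not all separate stretches.

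The 4 exonic peaks of Gata4 lay near 0. In order, the 3 coding peaks had -0.62, 0.39 (chr14:63200482-63200540) and -0.11 per the authors' deposited table and the 3′ UTR peak had -0.46, and the lowest p was 0.955. Against the table's median all 4 stood higher, by 0.44 to 1.45, so centring turns 3 of them from below to above 0. No exonic value overlapped with those of the first 7 intronic peaks, but the last intronic peak, at -0.1, lay within the exonic range. The first 7 were set apart with the values in view, and how many genes show such a gap was not counted.

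Intronic peaks of Gata4 had a median of -1.80 and exonic peaks one of -0.29 per the authors' deposited table, a difference of -1.52 computed before rounding. Introns stood below exons in the typical gene as well, since the median difference over 751 genes with at least 4 peaks of each kind was -0.44. At or below the Gata4 difference were 105 of these genes. The order along the gene was steeper by rank. Spearman's rho between position from 5′ to 3′ and log2 fold change was 0.80 over the 12 Gata4 peaks, and 998 of the 1001 genes with 12 or more peaks had a rho at or below it. Position and region go together in Gata4, as all exonic peaks lie 3′ of all intronic ones, so the parts of each cannot be told apart. The 12 peaks form 10 separate stretches of 1 transcript, and the rho carries no test. The contrast of introns and exons was chosen after the values were seen.

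Pdgfra (ENSMUSG00000029231.15), the receptor kinase gene, had 4 peaks, all exonic. RefSeq places it at chr5:75151322-75198206, and its peaks lie on the plus strand. The depleted peak, chr5:75196807-75196834, is a 28 nt stretch of the 3′ UTR that ends 1372 nt before the annotated 3′ end of the gene. It had a log2 fold change of -3.12 (8.69-fold lower with ZFP36L2 than with IgG, p = 0.00166, adjusted p = 0.0257) per the authors' deposited table. That was the lowest value of the 36 peaks, and 3.65% of the 7537 peaks in 3′ UTRs were lower. Of 3′ UTR peaks, 4.83% were depleted, with a median of -3.34 per the authors' deposited table.

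The peak that touches it on the 5′ side, chr5:75196769-75196806, had -2.17 (adjusted p = 0.603) per the authors' deposited table. The remaining 3′ UTR peak, farther upstream at chr5:75195933-75196008, had -1.78 with an adjusted p of 1. All 3 peaks of the 3′ UTR were below 0 and below the median of the table. Of all 7537 peaks in 3′ UTRs, 78.5% were below 0 and 3803 below that median. The single coding peak, chr5:75186022-75186062, had 0.23 per the authors' deposited table (adjusted p = 1) and lay above the 3 peaks of the 3′ UTR. Coding peaks stood higher in the whole table too, with a median of -0.72 against -1.08 for 3′ UTR peaks. How many genes show such a gap was not counted. No peak of Pdgfra was enriched, at an adjusted or an unadjusted p.

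For Pdgfra, RefSeq's promoter table gives 1 start, at 75152251, which is 929 nt inside the RefSeq span of the gene. Its first 30 transcribed bases, chr5:75152251-75152280, are shown because they hold ATTTA, in capitals, on the sense strand.

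Pdgfra start, transcribed bases: cagctATTTActttaagcaaatgattagtt

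ATTTA occurs in the first 50 transcribed bases of 2.33% of 32851 windows, and the longer TATTTAT in 0.198%, which the Pdgfra window does not hold. The nearest Pdgfra peak in the direction of transcription is the coding one, 33771 nt away. GATA and TATC have 0 matches in the 250 bases before that start. Gata4 has no entry in the promoter table.

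Set beside all peaks, the 3 genes covered different parts of the distribution. Prlr ranged from -2.33 to 2.53 with a median of 0.51 per the authors' deposited table, which is 1.57 above that of all peaks. Gata4 ranged from -2.72 to 0.39 with a median of -1.56, and Pdgfra from -3.12 to 0.23 with a median of -1.98, in the same table. The Prlr range of 4.86 was wider than in 73.3% of the 1001 genes with 12 or more peaks, and the Gata4 range of 3.11 wider than in 23.3%. Prlr and Gata4 differed in the sign of the median, and this held for the median centred on the table (1.57 for Prlr and -0.50 for Gata4).

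**Figure D2:**
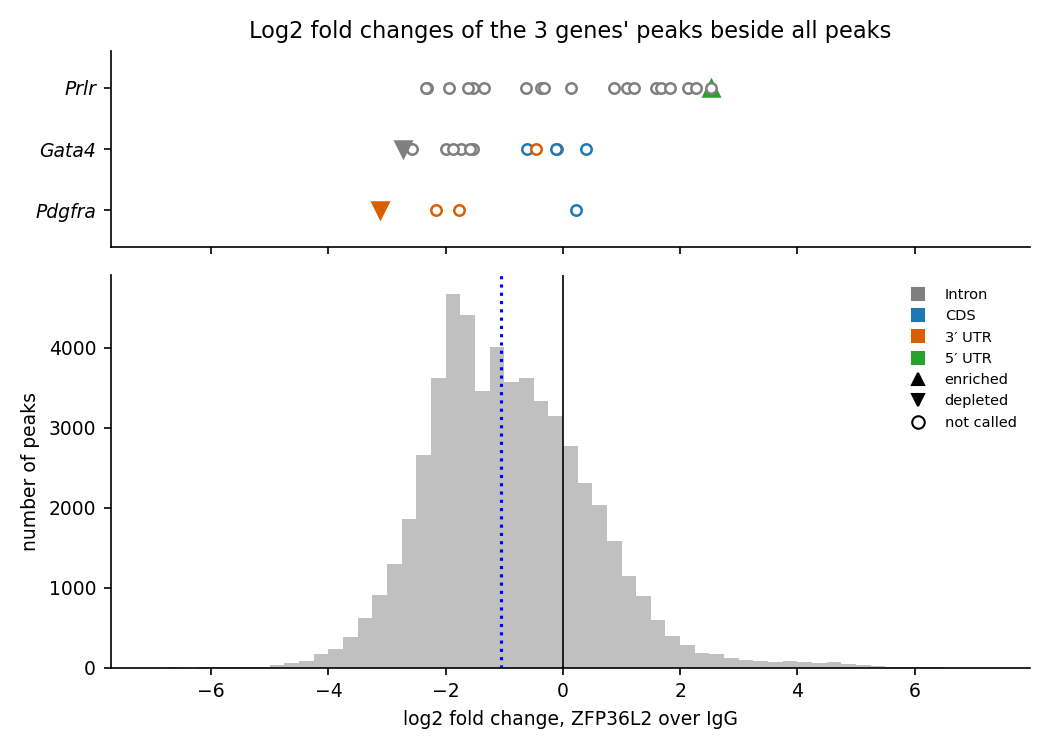
Log2 fold change of ZFP36L2 over IgG (horizontal axis) for each peak of Prlr, Gata4 and Pdgfra (upper panel, 1 row per gene) and for all 55449 peaks (lower panel, number of peaks per bin). The dotted line is the median of all peaks, -1.06; the Prlr points span both sides of it, and 3 of 4 Pdgfra points lie left of it.

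The calls rested on small margins. All 3 called peaks had adjusted p-values between 0.0257 and 0.0339, and none passed at an adjusted p under 0.01. Of the 10307 peaks of the table with a log2 fold change from 2 to 3 in size, 1034 passed the adjusted p of 0.05. The 3 genes had 10 peaks in that range, among them the called peaks of Prlr and Gata4. Among peaks of 3 or more in size, where Pdgfra has its depleted peak, 92.6% passed. Of 22188 peaks under 1 in size, 2 passed the adjusted p and the median −log10 p was 0.00. A call also asks for at least 1 in size, so the 11 members in that range could not be called.

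**Figure D3:**
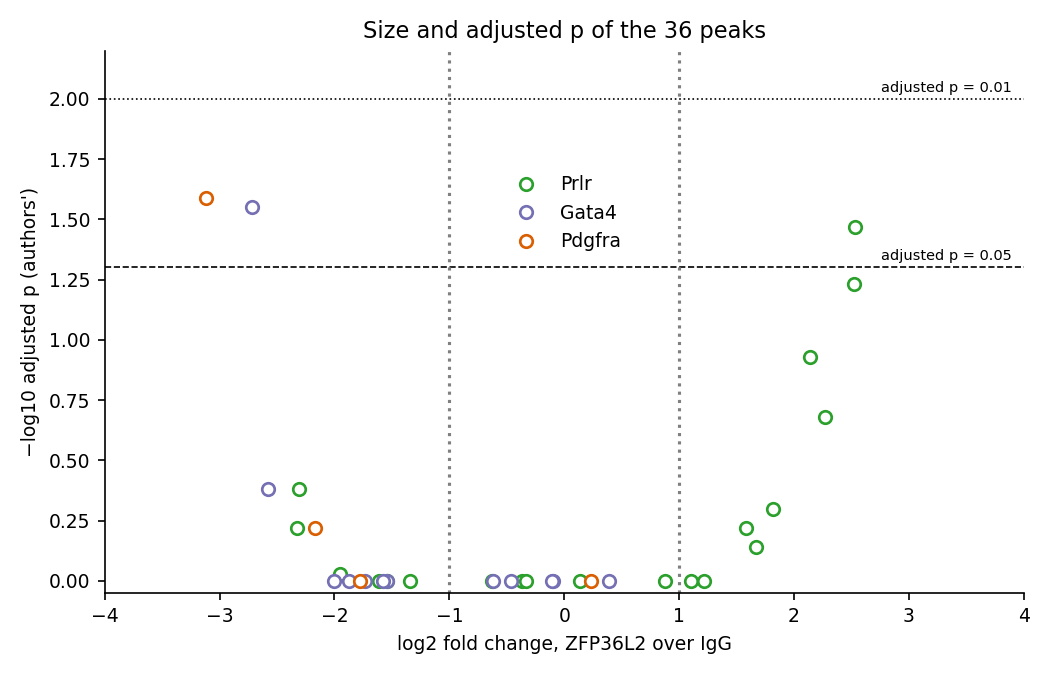
Authors' adjusted p on the −log10 scale (vertical axis) against log2 fold change, ZFP36L2 over IgG (horizontal axis), for the 36 peaks, coloured by gene. Horizontal lines mark adjusted p-values of 0.05 and 0.01 and vertical lines log2 fold changes of -1 and 1; 3 points lie above the lower horizontal line and none above the upper one.

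Prlr, Gata4 and Pdgfra were set within a list of 32 Leydig genes, of which 21 had a peak. Enriched peaks occurred in 4 of the 21 (19.0%, against 5.04% of all genes) and depleted ones in 5 (23.8%, against 17.3% of all genes). The list had 8.43 peaks per gene with a peak, against 5.2 over all genes, and a gene with more peaks has more chances of a call. Of its 36 enriched peaks, 33 lay in Cyp11a1. Besides Prlr, the enriched genes included Cyp11a1, the side-chain cleavage enzyme, and Lhcgr, the luteinizing hormone receptor. Their peaks with the smallest adjusted p are listed in the authors' deposited table at 5.68 and 3.93 on the log2 scale, both larger than the Prlr peak. In Lhcgr the enriched peak is the 1 that the table classes as Other, the 15 intronic peaks were not called, and the gene's median was -0.05 per the authors' deposited table. Besides Gata4 and Pdgfra, the depleted genes included Nr2f2, an orphan nuclear receptor of Leydig progenitors (-3.96 in its 3′ UTR), and Thra, a thyroid hormone receptor (-2.68 in coding sequence), per the authors' deposited table. By gene median, 14 of the 21 stood above the table's median of -1.06, against 4601 of all 10818 genes. Prlr (0.51) was among the 14, and Gata4 (-1.56) and Pdgfra (-1.98) were not, from the authors' deposited table. Over all genes, the median of the gene medians was -1.27.

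As a check on the label, peaks were found in the Leydig genes Star, Cyp11a1, Lhcgr and Nr5a1, but Cyp17a1, Hsd3b1, Hsd3b6, Hsd17b3 and Insl3 had none. A peak shows only that fragments of a gene's RNA were recovered and is no expression level. Nor does it mark a gene as a Leydig gene. Outside the Leydig list, the GATA cofactor genes Tbx20, Nkx2-5 and Hand2 had 16, 5 and 2 peaks with no call, and Tbx5 had none. Among lists for other testis cells, Sertoli genes had peaks in 4 of 15 (2 enriched, Clu and Ctsl, 0 depleted), peritubular myoid genes in 4 of 6 (no call) and germ cell genes in 3 of 10 (no call). Macrophage genes had peaks in 11 of 11 (Lyz2 enriched, Adgre1 depleted) and endothelial genes in 5 of 6 (Kdr depleted). These counts stand beside 5.04% of all genes enriched and 17.3% depleted. With a change of at least 1 in size on the log2 scale at an unadjusted p under 0.05, the numbers of genes higher and lower were 2 and 0 for Sertoli, 0 and 0 for myoid, and 0 and 3 for germ cell genes. They were 1 and 3 for macrophage and 1 and 3 for endothelial genes, against 6.55% higher and 31.3% lower over all genes. Genes of Leydig progenitors or stroma, a list that holds Pdgfra, had peaks in 8 of 10, with Vim enriched and Nr2f2, Lifr and Pdgfra depleted. The labels name the MLTC-1 line for all libraries and no mixed tissue. Whether the recovered RNA is that of a Leydig line alone was not tested. Nor was the part of other cell types in the values of the 3 genes.

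**Figure D4:**
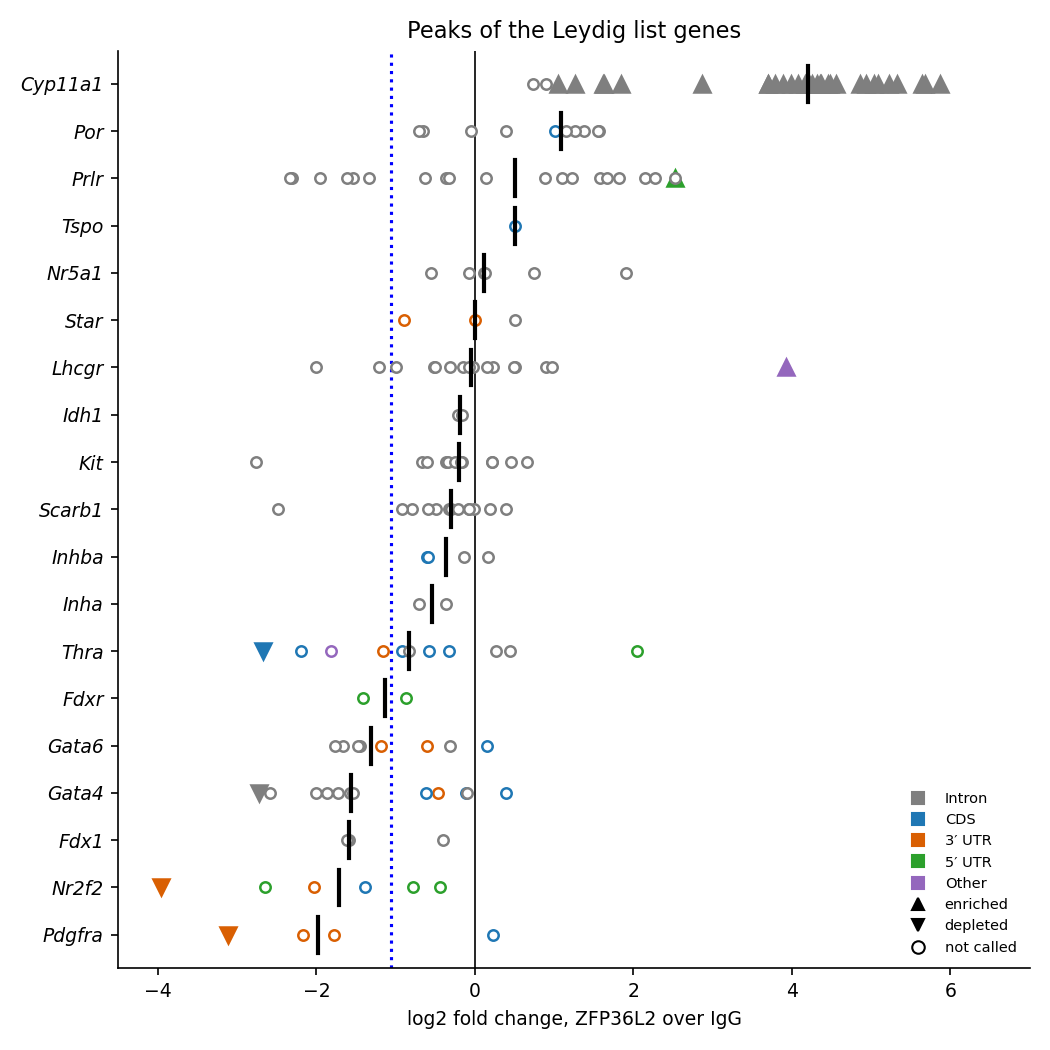
Log2 fold change of ZFP36L2 over IgG (horizontal axis) for each peak of 19 Leydig list genes with a peak, 1 row per gene, ordered by the gene's median (black bar). Filled triangles are called peaks and the dotted line is the median of all peaks; Prlr lies among the upper rows, and Gata4 and Pdgfra lie among the lowest.

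Around Prlr, a list of 36 prolactin signalling genes had 34 with a peak, 4 of them with an enriched one (11.8%) and 9 with a depleted one (26.5%), against 5.04% and 17.3% of all genes. It held 7.82 peaks per gene, against 5.2 over all genes. By peak, 1.5% of its 266 were enriched and 7.52% depleted, against 2.22% and 5.44% of the table. Jak2, Stat5a and Stat5b had no call. Jak2, the receptor-bound kinase, had 3 peaks with a median of -1.68, and Stat5b, the transcription factor it activates, had 5 peaks with a median of -2.35 and a lowest value of -3.11 (adjusted p = 0.0631) per the authors' deposited table. The single Stat5a peak had -0.50 in that table. Of the feedback inhibitors, Socs2, Socs3, Socs7 and Cish had medians of -1.15, -0.30, -0.42 and -1.64 per the authors' deposited table, with no call. The enriched genes besides Prlr were Lhcgr, Irs1, an adaptor of receptor kinases (2.98 in an intron), and Gsk3b, a kinase that phosphorylates the receptor (3.15 in the 5′ UTR), per the authors' deposited table. Gsk3b also had 2 depleted intronic peaks. Other depleted genes were the phosphatase gene Ptpn11 (7 of 20 peaks, down to -4.23), the kinase gene Nek3 (2 of 6, down to -4.15), the PI3 kinase subunit gene Pik3r1 (3 of 12, down to -3.80) and the phosphatase gene Ptpn1 (2 of 10, down to -3.22), per the authors' deposited table. Vav2, Fyn, Grb2 and Ppia had 1 depleted peak each. The median of the gene medians was -1.36 on this list and -1.27 over all genes, whereas the Prlr median was 0.51.

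Around Gata4, a list of 41 GATA factors and cofactors had 27 genes with a peak. None had an enriched peak, and 1 had a peak of log2 fold change 1 or more at an unadjusted p under 0.05. Depleted peaks occurred in 8 of the 27 (29.6%), against 17.3% of all genes depleted and 5.04% enriched. The list held 7.22 peaks per gene, against 5.2 over all genes, and 9 of its 16 depleted peaks lay in Srf. The lowest adjusted p among these belonged to Srf, the serum response factor, which had 9 depleted peaks down to -5.76 per the authors' deposited table. Creb1, the cAMP response factor, reached -3.75, and Mef2d, a MADS-box factor, -3.08 in the same table. Gata6, the other GATA factor of Leydig cells, had 8 peaks and no call, with a median of -1.32 per the authors' deposited table. Its 5 intronic peaks had a median of -1.47 and its 3 exonic ones -0.60 in that table, so the introns of Gata6 stood below its exons as in Gata4, though no test bears on this. Gata1, with 6 peaks, and Gata2, with 1, had medians of -1.64 and -2.17 and no call per the authors' deposited table. Zfpm1 and Zfpm2, which encode the FOG cofactors, had medians of -0.77 and -0.80 per the authors' deposited table and no call. The median of the gene medians was -1.30 on this list, and that of Gata4 was -1.56.

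Around Pdgfra, a list of 55 PDGF signalling genes had 49 with a peak, of which 2 had an enriched one (4.08%) and 17 a depleted one (34.7%), against 5.04% and 17.3% of all genes. It held 8.24 peaks per gene, against 5.2 over all genes. By peak, 0.495% of its 404 were enriched and 8.66% depleted, against 2.22% and 5.44% of the table. Pdgfb, a ligand gene, was depleted in 3 of 8 peaks, all coding, down to -3.12 (adjusted p = 0.0155) per the authors' deposited table. Pdgfa, which encodes a ligand of PDGFRA, had 3 peaks with a median of -2.36, and Pdgfd had 24 with a median of -0.97, neither called, in that table. Pdgfrb, the second receptor, had 8 peaks with a median of -1.10 and no call per the authors' deposited table. Downstream of the receptors, the phosphatase gene Ptpn11 was depleted in 7 of 20 peaks, the adaptor gene Gab1 in 3 of 5 and the catalytic subunit gene Pik3cb in 2 of 2. The lowest values of these were -4.23, -4.90 and -4.24 per the authors' deposited table. The enriched genes were Pik3r2, a regulatory subunit of PI3 kinase (4.75, with 1 other peak depleted), and Furin, a convertase that processes PDGF precursors (3.61), both in coding sequence per the authors' deposited table.

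**Figure D5:**
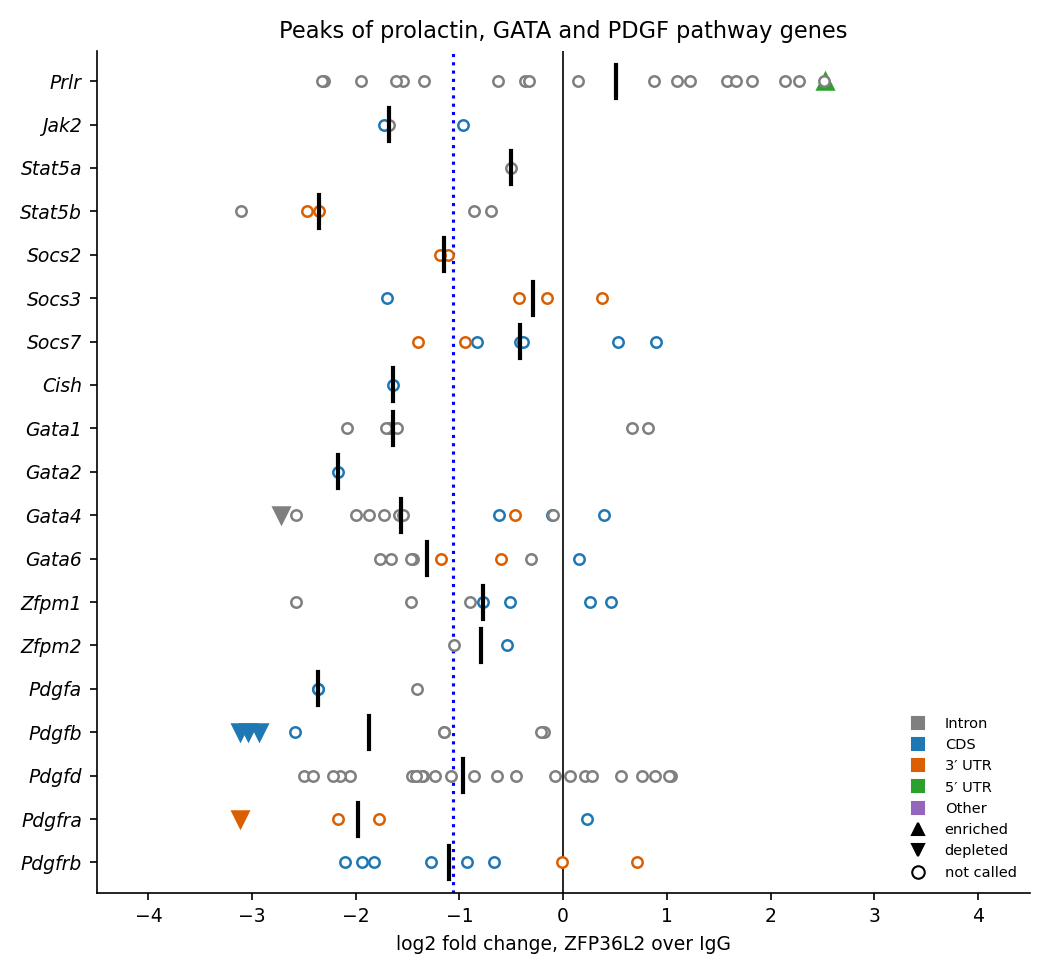
Log2 fold change of ZFP36L2 over IgG (horizontal axis) for each peak of 19 genes: Prlr, Jak2, Stat5a, Stat5b, Socs2, Socs3, Socs7, Cish, Gata1, Gata2, Gata4, Gata6, Zfpm1, Zfpm2, Pdgfa, Pdgfb, Pdgfd, Pdgfra and Pdgfrb, 1 row per gene, with the gene's median as a black bar. Filled triangles are called peaks; among the 19 genes drawn, they occur in Prlr (enriched), Gata4, Pdgfb and Pdgfra (depleted).

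The genes most like each member were found among those with a similar number of peaks, within 25% of the member's, by Euclidean distance over the median log2 fold change and 5 times the shares of enriched and of depleted peaks. For Prlr these were Igf2r (20 peaks, median 0.51), Srcap (19 peaks, 0.56) and Nfe2l1 (16 peaks, 0.48), each with 1 enriched peak, among 459 candidates per the authors' deposited table. Gata4 was closest to Arel1, Vps13a and Nol6, each with 12 peaks, 1 depleted, and medians of -1.56, -1.58 and -1.52 in that table. Closest to Pdgfra were Tusc3, Eml2 and Pced1a, with 4 peaks, 1 depleted, and medians of -1.98, -1.96 and -1.96 per the authors' deposited table. With a single comparison, the likeness covers these summary values alone.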

How the data were processed

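The authors deposited 1 table with a row per peak and 3 columns of values, and no column of a library. The fold change was deposited by the authors as a log2 value, ZFP36L2 over IgG by the table's name. Both kinds of p-value, plain and adjusted, stand in the deposited table on the −log10 scale and were converted back here. The submitters' processing notes list DESeq2 1.34.0, STAR 2.7.7a, cutadapt 3.2, UMI-tools 1.1.1 and the build mm10 without saying what each did. How peaks were called, whether libraries were pooled and how inputs entered is not stated there, in the labels or in the table. The IgG arm has 1 IP library, so antibody and library cannot be told apart in it, and nothing says that libraries came from separate cultures.

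Starts were converted from 0-based to 1-based positions. Calls used the authors' adjusted p-values over all 55449 peaks. A count test, planned in case of counts per library, did not apply. Gene lists were matched by symbol, 2 through older symbols in RefSeq (GRCm38.p6). All 3 genes matched the gene table, and Prlr and Pdgfra the promoter table. The rule for named genes took the called, highest, lowest and smallest-p peaks of the 3 genes, up to 4 genes per list by adjusted p, and Lhcgr, Gata6, Pdgfrb, Jak2, Stat5b and Zfpm2. Other genes, and those drawn in the pathway plot, were picked with their values in view. The members and lists were chosen with earlier results of these data known. The code was checked on simulated data and run with Python 3.11.15, pandas 2.3.3 and SciPy 1.17.1. Results of some listed genes are not reported here.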

Additional observations from a re-analysis of the deposited data

How the results depend on the processing

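At an adjusted p under 0.01, 0 peaks of the 3 genes were enriched and 0 depleted, against 1 and 2 as reported. The 1 and 2 calls were the same in number with no minimum size, with p-values adjusted anew and with centred fold changes. The same held with peaks merged when touching or within 50 nt. A minimum size of 2 on the log2 scale could not change them, as all 3 called peaks exceed it. The limit to peaks of 1 gene name could not either, as no member carries a second name. The median of Prlr was 1.57 when centred on all peaks, 0.27 as a mean, 0.88 when weighted by peak length and 0.14 over intronic peaks. The median of Gata4 was -0.50 centred, -1.24 as a mean, -1.54 weighted, -1.08 over peaks of 20 nt or longer and -1.80 over introns. The median of Pdgfra was -0.92 centred, -1.71 as a mean and -1.78 weighted, and it has no intronic peak. With centred values, alternatives added after the data were seen, 14 of 14 Prlr peaks upstream of the third start were above 0 and 6 of 6 downstream were below.

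No paired analysis was possible because the table holds no values per library. For the same reason libraries could not be left out in turn and count tests were not run. The planned search for AU-rich letters in peaks was not run, as no genome sequence beyond the windows at annotated starts was used here. Depth per peak is unknown.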

Other observations

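Touching peaks of the 3 genes gave a view of how far neighbouring values differ. There were 7 touching pairs, 4 in Prlr, 2 in Gata4 and 1 in Pdgfra. The log2 fold changes within a pair differed by 0.19 to 0.95 with a median of 0.29 per the authors' deposited table, and the median over all 14872 touching pairs was 0.28. The widest difference was that between the depleted 3′ UTR peak of Pdgfra and its neighbour. In no pair did the 2 peaks differ in sign.

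The peaks of the 3 genes also differed in where they fell. Of the peaks in Prlr, 95% were intronic, in Gata4 66.7% and in Pdgfra 0, against 42.3% of all peaks. Prlr had no coding or 3′ UTR peak. Per 100 kb of RefSeq gene length, there were 11.6 peaks in Prlr, 16.5 in Gata4 and 8.53 in Pdgfra.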
